A study of Mus musculus with 18 samples.

Results

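The 10 genes described here are 3 regulators of lipid metabolism, Pparg, Ppard and Ppargc1b, and 7 enzymes of fatty acid entry and oxidation in mitochondria. The enzyme genes are Cpt1a, Cpt2, Acadm, Acadl, Acadvl, Hadha and Hadhb. All 10 genes were taken by symbol from a table of 16909 genes. All 10 passed the filter on low counts that left 12465 genes for testing. The cells were bone marrow macrophages of the mouse, whose poly(A) RNA was sequenced in 18 libraries. The UVABs and STSABs groups (n = 5 each) received apoptotic bodies, the membrane-bound fragments shed by dying cells, made from cells labelled hucMSC by UV or by STS and named as anti-inflammatory treatments. The LPS group (n = 5) received lipopolysaccharide, a bacterial outer membrane component that activates macrophages, as the positive control for inflammation, and the Con group (n = 3) was mock treated. Strain, age, dose, time, whether the apoptotic body groups also received LPS, and whether replicates were separate cultures or animals are not stated in the sources used here, so the p-values cover only differences among these libraries, which could be technical.

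PPARs are nuclear receptors that bind fatty acids and their derivatives and switch on genes of lipid uptake, storage and oxidation as partners of RXR. In macrophages PPARγ, the product of Pparg, is known for lipid handling and for restraining inflammatory genes, PPARδ, the product of Ppard, is a widely expressed fatty acid sensor, and PGC-1β, the product of Ppargc1b, is a coactivator of mitochondrial genes linked to the alternatively activated state. Long-chain fatty acids enter mitochondria as carnitine esters through CPT1 and CPT2. Acyl-CoA dehydrogenases, which differ in the chain length they prefer, carry out the first step of each round of oxidation. The mitochondrial trifunctional protein, whose α and β subunits are encoded by Hadha and Hadhb, carries out the later steps.

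Promoter windows of RefSeq (GRCm38.p6, 250 bases before to 50 after a start) were at hand for 9 of the 10 genes, in 11 windows. The deposited counts rest on another build, so the windows serve only to show the sequence at these starts. Hadha and Hadhb are divergent neighbours whose starts lie 273 bases apart on chromosome 5, and their windows share 228 bases. The Hadhb window, shown because it is at the same time most of the Hadha window, is chr5:30155003-30155302 on the plus strand, with the bases shared with Hadha in capitals.
Hadhb: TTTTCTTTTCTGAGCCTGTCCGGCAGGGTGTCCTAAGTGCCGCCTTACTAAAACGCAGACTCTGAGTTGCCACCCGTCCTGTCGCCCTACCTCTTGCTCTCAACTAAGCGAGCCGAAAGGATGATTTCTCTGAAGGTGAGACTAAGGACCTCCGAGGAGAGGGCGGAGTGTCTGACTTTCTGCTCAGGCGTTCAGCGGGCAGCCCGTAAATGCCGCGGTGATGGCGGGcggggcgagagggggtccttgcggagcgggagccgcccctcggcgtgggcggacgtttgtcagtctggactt
The 3 acyl-CoA dehydrogenase windows are shown because these genes moved in different directions. They are chr3:153944594-153944893 for Acadm, chr1:66863260-66863559 for Acadl and chr11:70015379-70015678 for Acadvl, all on the minus strand and written in the direction of the gene. Capitals mark AGGTCA or its reverse complement TGACCT, the core element that nuclear receptors bind.
Acadm: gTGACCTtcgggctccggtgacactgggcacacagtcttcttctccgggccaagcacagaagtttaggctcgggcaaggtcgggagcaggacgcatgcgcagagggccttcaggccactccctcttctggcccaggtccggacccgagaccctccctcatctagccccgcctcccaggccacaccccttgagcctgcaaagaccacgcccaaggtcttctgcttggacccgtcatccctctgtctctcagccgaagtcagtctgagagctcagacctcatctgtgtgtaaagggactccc
Acadl: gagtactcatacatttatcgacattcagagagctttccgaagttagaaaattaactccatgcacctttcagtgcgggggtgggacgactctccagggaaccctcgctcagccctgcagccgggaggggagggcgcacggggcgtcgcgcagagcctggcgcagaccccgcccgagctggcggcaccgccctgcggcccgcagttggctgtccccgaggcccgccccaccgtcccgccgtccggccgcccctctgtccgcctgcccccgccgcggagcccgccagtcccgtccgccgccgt
Acadvl: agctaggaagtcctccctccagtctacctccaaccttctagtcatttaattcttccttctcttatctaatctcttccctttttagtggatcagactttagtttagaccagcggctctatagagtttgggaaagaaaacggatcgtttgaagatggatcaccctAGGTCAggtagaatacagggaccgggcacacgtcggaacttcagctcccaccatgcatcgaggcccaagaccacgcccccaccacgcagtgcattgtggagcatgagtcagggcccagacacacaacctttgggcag
AGGTCA on either strand occurred in the windows of Acadm and Acadvl, in the Cpt1a window, in 2 of the Pparg windows, and in 16.3% of 32851 windows of the same length. The windows of Acadl, Ppard, Cpt2, Hadha and Hadhb and the remaining Pparg window held none. The PPAR-type direct repeat AGGTCANAGGTCA (2 copies with a gap of 1 base, allowing 2 mismatches on either strand) occurred in 3.86% of all windows, and TCAAGGTCA, the element of the estrogen-related receptors, which contains AGGTCA, in 0.423%. Neither occurred in any of the 11 windows, which says only that these letters are not in these windows. Ppargc1b had no window to search.

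Totals ran from 17851457 to 18312800 counts in UVABs, 17588357 to 18675283 in STSABs, 18089053 to 18582823 in LPS and 18252486 to 18346832 in Con. Levels are given in CPM, counts relative to the size of the library after TMM scaling, which brings the libraries to a common level over most genes. The mean TMM factor was 0.928 in UVABs, 0.932 in STSABs, 0.902 in LPS and 1.51 in Con, so every comparison with Con depends on the scaling. The median log2 fold change of all tested genes in LPS against Con was -0.03 with TMM, -0.01 with DESeq2 size factors, -0.31 with upper-quartile scaling and -0.78 with library totals alone. The share of called genes that were higher was 48.2% with TMM, 49% with DESeq2 size factors, 36% with upper-quartile scaling and 21.2% with library totals. Replicate 2 of UVABs and replicate 2 of STSABs stood apart from the other libraries of their groups, at -27.2 and -21.5 on principal component 3, which held 2.06% of the variance, where the other AB libraries lay between 2.5 and 11.2. Of the 12 macrophage markers none was at 0 in any group, and their summed level was 10458 to 11453 CPM in UVABs, 9046 to 10849 in STSABs, 12470 to 13934 in LPS and 11830 to 12711 in Con.

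In LPS against Con, the genes divided. Pparg and Ppargc1b fell steeply, Acadm, Acadvl and Cpt1a fell, Acadl rose more than 2-fold, and the trifunctional protein genes Hadha and Hadhb rose modestly with TMM scaling but not with library totals alone. In edgeR's quasi-likelihood F-test with Benjamini-Hochberg adjustment below 0.05 over 12465 genes, 3 of the 10 genes were higher, 5 were lower and 2, Ppard and Cpt2, did not pass. The test called 83% of all tested genes in this comparison, 40% higher and 43% lower, so the 8 calls are about as many as among genes at large, and what sets the genes apart from each other is their direction and size.

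**Figure D1:**
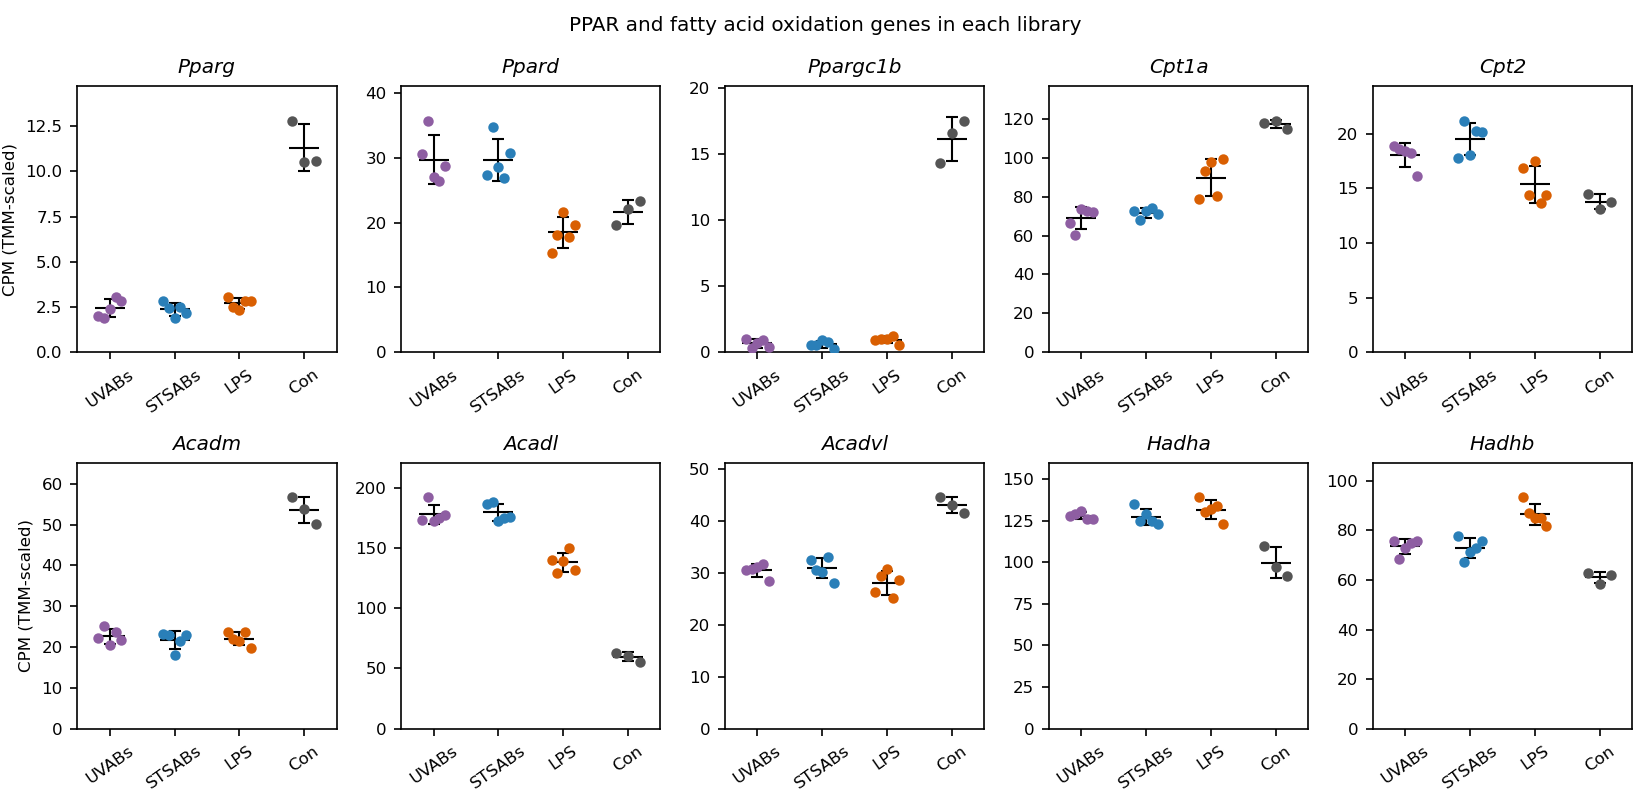
Level of each of the 10 genes (CPM, TMM-scaled, linear axis from 0) in every library of UVABs, STSABs, LPS and Con, with a line at the group mean and bars of 1 SD. Pparg, Ppargc1b and Acadm are low in all libraries of the 3 treated groups and high in Con, Acadl is lowest in Con, and Ppard is higher in both apoptotic body groups than in LPS.

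Pparg had 2.0, 1.92, 2.38, 3.03 and 2.82 CPM in UVABs and 2.84, 2.43, 1.92, 2.51 and 2.17 CPM in STSABs. It had 3.05, 2.48, 2.33, 2.82 and 2.82 CPM in LPS and 12.8, 10.5 and 10.6 CPM in Con. Every treated library was below every Con library, and the 3 treated groups overlapped. Its log2 fold change in LPS against Con was -2.06 ± 0.13 (SE, adjusted p = 1.04e-12, edgeR), a 4.17-fold lower level.

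Ppargc1b had 1.03, 0.299, 0.713, 0.932 and 0.411 CPM in UVABs and 0.579, 0.547, 0.958, 0.76 and 0.235 CPM in STSABs. It had 0.898, 1.03, 1.04, 1.26 and 0.552 CPM in LPS and 14.3, 16.6 and 17.5 CPM in Con. These levels rest on 5 to 17 counts per library in UVABs, 4 to 16 in STSABs and 9 to 21 in LPS, against 395 to 483 in Con. The log2 fold change in LPS against Con was -4.06 ± 0.195 (SE, adjusted p = 1.06e-14, edgeR), 16.7-fold lower, and among all tested genes it lay at percentile 0.61, where Pparg lay at 6.75. Ranks do not depend on the scaling of libraries in the way that signs do.

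Ppard behaved unlike Pparg. It had 30.6, 35.7, 27.1, 26.4 and 28.7 CPM in UVABs and 27.3, 34.8, 28.5, 26.8 and 30.7 CPM in STSABs. It had 15.3, 18.1, 21.7, 17.8 and 19.6 CPM in LPS and 19.6, 22.1 and 23.3 CPM in Con. All AB libraries lay above all LPS and all Con libraries, while LPS and Con overlapped. The log2 fold change in LPS against Con was -0.23 ± 0.11 (SE, adjusted p = 0.0576, edgeR), which did not pass with TMM or DESeq2 size factors and passed as lower with upper-quartile scaling (-0.51) and library totals (-0.97). The ratio of Ppard to Pparg counts within a library, which no scaling touches, was 12.9 ± 4.05 in UVABs and 12.7 ± 2.4 in STSABs (SD, n = 5 each), against 6.97 ± 1.58 in LPS (SD, n = 5) and 1.94 ± 0.361 in Con (SD, n = 3). Of the family's other regulators, Ppara, the receptor best known from liver, had at most 2 counts in a UVABs library, at most 1 in an STSABs library and 0 in every LPS and Con library. Ppargc1a, the related coactivator, had 1 to 11 counts per library in UVABs, 5 to 9 in STSABs, 2 to 6 in LPS and 1 to 5 in Con, and neither gene was tested.

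Cpt1a encodes the outer membrane carnitine palmitoyltransferase that controls entry of long-chain fatty acids. It had 66.4, 60.3, 73.6, 72.4 and 72 CPM in UVABs and 72.6, 67.8, 72.4, 74.3 and 71.3 CPM in STSABs. It had 78.6, 93.1, 97.6, 80.4 and 99.1 CPM in LPS and 118, 119 and 115 CPM in Con. The groups formed 3 steps without overlap, with both AB groups lowest, LPS between and Con highest. Its log2 fold change in LPS against Con was -0.39 ± 0.07 (SE, adjusted p = 4.31e-05, edgeR), and it was lower under all 4 scalings.

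Cpt2, the inner membrane partner that hands the fatty acid back to coenzyme A, took another course. It had 18.9, 18.6, 18.4, 18.2 and 16.1 CPM in UVABs and 17.8, 21.2, 18.1, 20.3 and 20.2 CPM in STSABs. It had 16.9, 14.4, 17.5, 13.7 and 14.4 CPM in LPS and 14.5, 13.1 and 13.8 CPM in Con. LPS and Con overlapped, and the log2 fold change of 0.15 ± 0.085 (SE, adjusted p = 0.0968, edgeR) did not pass and turned to -0.12 with upper-quartile scaling and -0.59 with library totals. The ratio of Cpt2 to Cpt1a counts was 0.263 ± 0.0328 in UVABs, 0.273 ± 0.0273 in STSABs and 0.173 ± 0.0267 in LPS (SD, n = 5 each), against 0.118 ± 0.00684 in Con (SD, n = 3). Every library of both AB groups had a higher ratio than every LPS library, and every LPS library a higher one than every Con library.

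Acadm encodes the medium-chain acyl-CoA dehydrogenase. It had 22.2, 25.2, 20.5, 23.6 and 21.7 CPM in UVABs and 23.1, 23, 18.1, 21.4 and 22.9 CPM in STSABs. It had 23.6, 22, 21.4, 23.7 and 19.7 CPM in LPS and 56.7, 53.8 and 50.2 CPM in Con. The 3 treated groups overlapped and lay below every Con library. Acadm fell 2.43-fold in LPS against Con (log2 fold change -1.28 ± 0.08 SE, adjusted p = 9.28e-13, edgeR).

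Acadl, the long-chain acyl-CoA dehydrogenase, went the other way. It had 173, 192, 172, 175 and 177 CPM in UVABs and 186, 188, 172, 175 and 176 CPM in STSABs. It had 140, 129, 139, 150 and 132 CPM in LPS and 62.7, 60.6 and 55.6 CPM in Con. The AB groups overlapped each other, lay above every LPS library, and LPS lay above every Con library. Acadl rose 2.32-fold in LPS against Con (log2 fold change 1.21 ± 0.06 SE, adjusted p = 2.26e-14, edgeR), the sole gene of the 10 that was higher under TMM, DESeq2 size factors, upper-quartile scaling and library totals alike.

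Acadvl, the very-long-chain acyl-CoA dehydrogenase of the inner membrane, ranged over 28.4 to 31.7 CPM in UVABs, 28.1 to 33 in STSABs, 25.2 to 30.8 in LPS and 41.4 to 44.5 in Con. It fell in LPS against Con, by 0.62 ± 0.065 on the log2 scale (SE, adjusted p = 1.22e-08, edgeR). In the GENCODE vM21 annotation, 42.9% of its exon bases lie under exons of Dvl2 on the opposite strand. The libraries marked strand but the strand setting of the counting is not given, so it is not known whether reads of the 2 genes were told apart there. Dvl2, a Wnt signalling adaptor, averaged 7.32 ± 0.304 CPM in LPS (SD, n = 5) and 11.3 ± 0.987 in Con (SD, n = 3), and its part in the Acadvl result was not tested.

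The proportions among the 3 dehydrogenases show the change without any scaling. Acadl made up 76.9% ± 0.764 of their summed counts in UVABs, 77.3% ± 0.74 in STSABs and 73.3% ± 1.41 in LPS (SD, n = 5 each), against 38.1% ± 0.404 in Con (SD, n = 3). Acadm made up 9.8% ± 0.439 in UVABs, 9.35% ± 0.691 in STSABs and 11.7% ± 0.646 in LPS, against 34.3% ± 0.265 in Con. The ratio of Acadl to Acadm counts was 7.86 ± 0.398 in UVABs, 8.32 ± 0.69 in STSABs and 6.27 ± 0.363 in LPS, against 1.11 ± 0.0123 in Con. The highest LPS library, at 6.71, lay below the lowest UVABs library at 7.38 and the lowest STSABs library at 7.68. The ratio of Acadm to Acadvl counts was 0.743 ± 0.0558 in UVABs, 0.704 ± 0.0839 in STSABs, 0.795 ± 0.117 in LPS and 1.25 ± 0.0318 in Con, with the 3 treated groups overlapping.

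**Figure D2:**
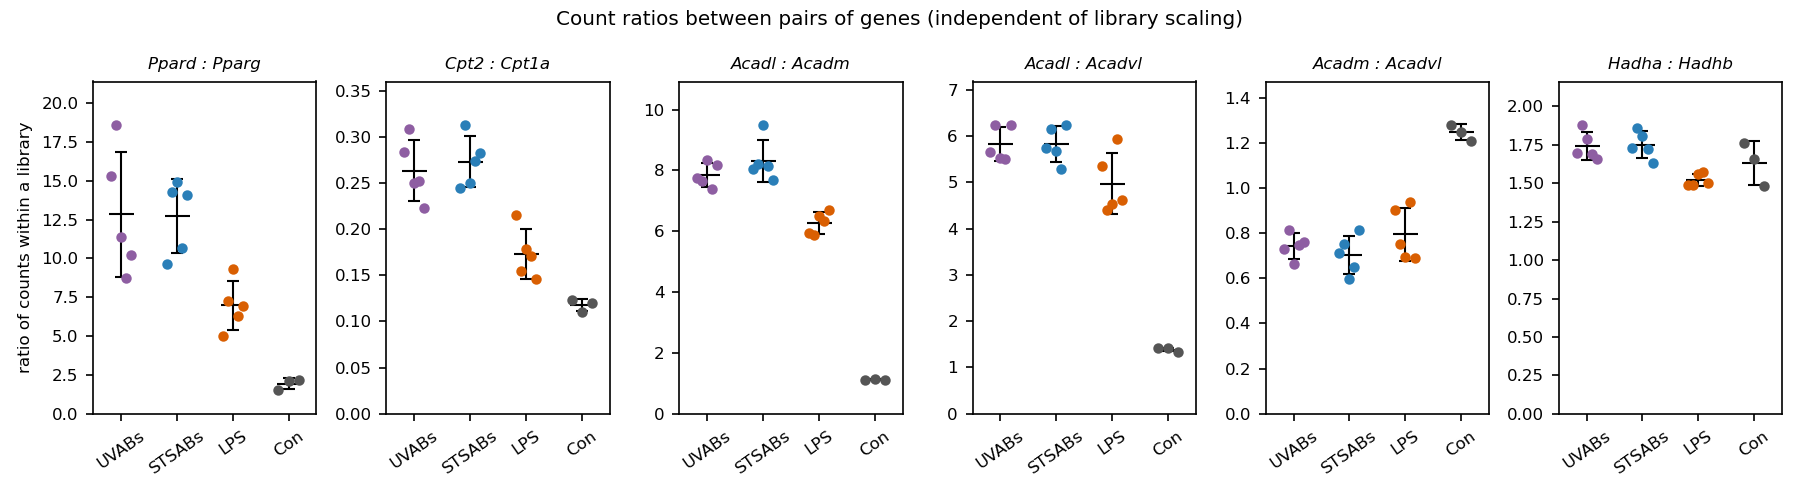
Ratio of the counts of 2 genes within each library (linear axes from 0), with a line at the group mean and bars of 1 SD, for UVABs, STSABs, LPS and Con. The ratio of Acadl to Acadm is 1.11 in Con and 6.27 in LPS and higher again in both apoptotic body groups. The mean ratio of Ppard to Pparg is also higher in both apoptotic body groups than in LPS, with overlap between UVABs and LPS, and lowest in Con.

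Hadha, the α subunit that carries the hydratase and the hydroxyacyl-CoA dehydrogenase, had 128, 129, 131, 126 and 126 CPM in UVABs and 135, 125, 129, 125 and 123 CPM in STSABs. It had 139, 130, 132, 134 and 123 CPM in LPS and 110, 97.3 and 91.8 CPM in Con. Hadhb, the β subunit that carries the thiolase, had 75.6, 68.6, 73.1, 74.8 and 75.6 CPM in UVABs and 77.6, 67.4, 71.5, 72.9 and 75.7 CPM in STSABs. It had 93.4, 87.2, 85, 85.1 and 81.9 CPM in LPS and 62.7, 58.5 and 62.1 CPM in Con. Both lay above Con in every treated library on this scale, and for Hadhb both AB groups lay between Con and LPS. In LPS against Con, Hadha had a log2 fold change of 0.40 ± 0.06 (SE, adjusted p = 9.25e-07, edgeR), which did not pass with upper-quartile scaling (0.12) and turned to -0.35 with library totals. Hadhb had 0.50 ± 0.06 (SE, adjusted p = 3.1e-08, edgeR), which passed with upper-quartile scaling and turned to -0.24 with library totals. At percentiles 66.7 and 70.2 of all tested genes, both were above the middle of the ranking. The ratio of Hadha to Hadhb counts, of the pair that shares a promoter region, was 1.74 ± 0.0912 in UVABs, 1.75 ± 0.0886 in STSABs and 1.52 ± 0.0395 in LPS (SD, n = 5 each), and 1.63 ± 0.141 in Con (SD, n = 3). The LPS libraries, at 1.49 to 1.57, lay below the lowest library of either AB group, at 1.63, and the Con libraries, at 1.48 to 1.76, overlapped all 3 groups.

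**Figure D3:**
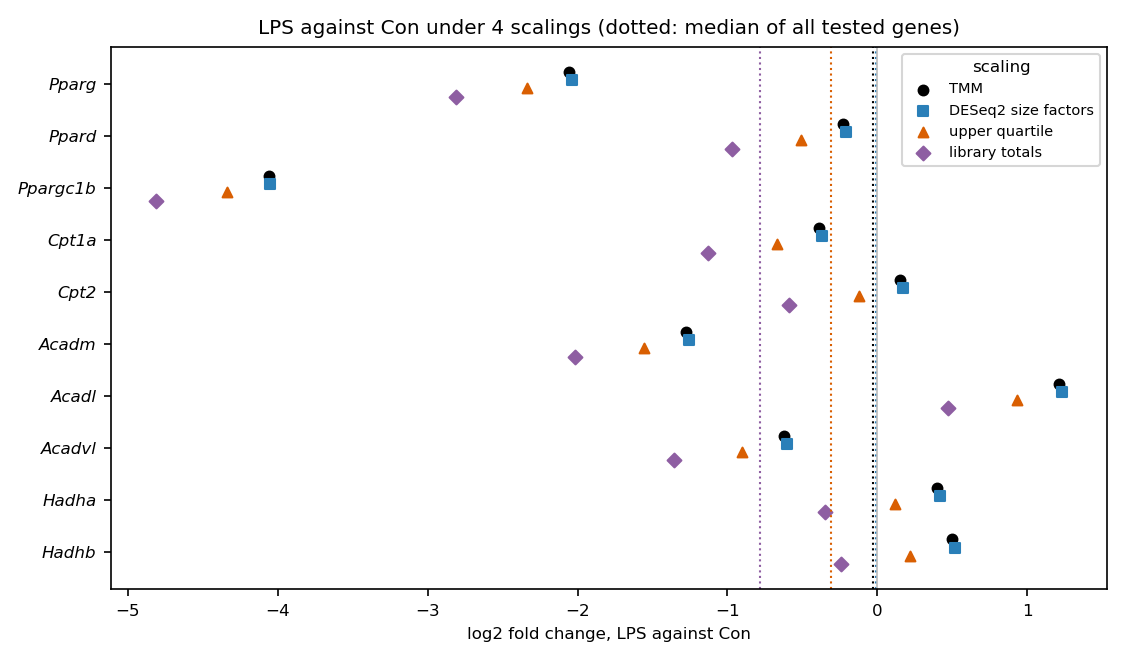
Log2 fold change of the 10 genes in LPS against Con under TMM, DESeq2 size factors, upper-quartile scaling and library totals, with dotted lines at the median of all tested genes under each. Pparg, Ppargc1b, Cpt1a, Acadm and Acadvl are below 0 and Acadl above 0 under all 4, while Cpt2, Hadha and Hadhb turn negative with library totals and Cpt2 also with upper-quartile scaling.

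Set per kilobase of transcript (principal transcripts of GENCODE vM21), so that genes can be compared with each other, Acadl had the highest level in every group. It stood at 92.8 ± 4.26 CPM per kb in UVABs, 93.6 ± 3.72 in STSABs and 72 ± 4.26 in LPS (SD, n = 5 each), against 31.1 ± 1.9 in Con (SD, n = 3). Hadhb came next, at 35.9 ± 1.44 CPM per kb in UVABs, 35.7 ± 1.92 in STSABs, 42.2 ± 2.09 in LPS and 29.8 ± 1.11 in Con. In Con the top of the order was close, as Acadl and Hadhb overlapped, and below them Cpt1a (27.2 ± 0.482 CPM per kb), Acadm (26.2 ± 1.59) and Hadha (24.8 ± 2.32) overlapped each other. In the treated groups Acadl stood clear of the other 9 genes, and Acadm was below Hadhb, Hadha, Cpt1a and Acadvl, at 11.1 ± 0.885 CPM per kb in UVABs, 10.6 ± 1.04 in STSABs and 10.8 ± 0.813 in LPS. Ppargc1b was lowest in every group, at 0.185 CPM per kb in UVABs, 0.168 in STSABs, 0.261 in LPS and 4.41 in Con. Ppard stood above Pparg in every treated library, while in Con Ppard at 6.61 ± 0.576 CPM per kb and Pparg at 6.4 ± 0.736 overlapped.

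The 7 enzymes together reached, with TMM scaling, 519 ± 3.85 CPM in UVABs, 524 ± 12.5 in STSABs and 511 ± 9.65 in LPS (SD, n = 5 each), against 448 ± 19.6 in Con (SD, n = 3). On that scale UVABs, at 515 to 525 CPM, and STSABs, at 511 to 544 CPM, overlapped LPS, at 499 to 523 CPM. They also overlapped LPS with upper-quartile scaling. With library totals UVABs, at 476 to 489 CPM, and STSABs, at 475 to 503 CPM, lay above LPS, at 450 to 468 CPM. The order against Con depends on the scaling, since with library totals the sum was 482 ± 4.83 CPM in UVABs, 488 ± 10.6 in STSABs and 461 ± 8.17 in LPS, against 678 ± 29.6 in Con. With upper-quartile scaling it was 504 ± 5.83 CPM in UVABs, 509 ± 16.3 in STSABs and 493 ± 8.86 in LPS, against 524 ± 24.1 in Con.

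Against LPS, Ppard, Cpt2 and Acadl were higher and Cpt1a and Hadhb lower in both apoptotic body groups. Acadvl passed as higher in STSABs against LPS and did not pass in UVABs against LPS. In UVABs against LPS 3 of the 10 genes were higher and 2 lower, where the test called 57.4% of all tested genes, 28.6% higher and 28.8% lower. In STSABs against LPS 4 were higher and 2 lower, where it called 57.4%, 28.4% higher and 29% lower. The shares among the 10 genes are near these backgrounds. Both comparisons share the LPS libraries, so neither is an independent repeat of the other.

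Ppard had the largest change of the 10 among the calls. Its log2 fold change was 0.68 ± 0.10 in UVABs against LPS (1.61-fold, SE, adjusted p = 3.39e-06, edgeR) and 0.68 ± 0.10 in STSABs against LPS (1.6-fold, SE, adjusted p = 3.73e-06, edgeR). Its highest library in each AB group was the replicate 2 that stood apart. Without both of those it was 0.61 in UVABs against LPS and 0.62 in STSABs against LPS, and it still passed.

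Acadl was higher, by a log2 fold change of 0.36 ± 0.05 in UVABs against LPS (adjusted p = 2.34e-06, edgeR, SE) and 0.38 ± 0.05 in STSABs against LPS (adjusted p = 1.43e-06, edgeR, SE). Cpt1a was lower by 0.38 ± 0.065 in UVABs against LPS (SE, adjusted p = 3.89e-05, edgeR) and by 0.32 ± 0.065 in STSABs against LPS (SE, adjusted p = 0.000218, edgeR). In the order of levels, LPS lay between the AB groups and Con for both genes. For Hadhb the AB groups lay between LPS and Con with TMM and DESeq2 size factors. With upper-quartile scaling the AB groups were level with Con for Hadhb (-0.01 in STSABs and 0 in UVABs against Con). With library totals LPS lay between for Hadhb too, at -0.24 against Con, where both AB groups were at -0.44. Hadhb was lower by 0.23 ± 0.05 in UVABs against LPS (SE, adjusted p = 0.000303, edgeR) and by 0.24 ± 0.05 in STSABs against LPS (SE, adjusted p = 0.000195, edgeR). Acadl and Cpt1a held their calls without replicate 2 of both AB groups, as did Hadhb.

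Cpt2 had a log2 fold change of 0.23 ± 0.075 in UVABs against LPS (SE, adjusted p = 0.013, edgeR), with overlap between the groups, and 0.34 ± 0.075 in STSABs against LPS (SE, adjusted p = 0.000499, edgeR), with no overlap. With replicates 1 to 3 of each group alone neither call held, at 0.20 in UVABs against LPS (adjusted p = 0.0946) and 0.23 in STSABs against LPS (adjusted p = 0.0533). Acadvl, at 0.14 ± 0.06 in STSABs against LPS (SE, adjusted p = 0.0478, edgeR), overlapped LPS and lost its call when any of 13 of the 18 libraries was left out, with values of 0.11 to 0.15. It held without replicate 2 or 5 of UVABs, replicate 5 of STSABs, or replicate 2 or 3 of LPS, and was lost without replicate 2 of both AB groups together (0.15, adjusted p = 0.0501). At 0.12 ± 0.06 in UVABs against LPS it did not pass (adjusted p = 0.0835, edgeR). Within LPS, replicates 1 and 4 were the lowest for Cpt1a, Acadvl and Ppard together.

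Pparg, Ppargc1b, Acadm and Hadha did not pass against LPS. Pparg had log2 fold changes of -0.15 in UVABs against LPS (95% interval -0.458 to 0.154) and -0.19 in STSABs against LPS (-0.492 to 0.122). Ppargc1b had -0.50 in UVABs against LPS (-1.143 to 0.15) and -0.63 in STSABs against LPS (-1.292 to 0.027). The value in STSABs against LPS passed without replicate 3 of STSABs (-0.84, adjusted p = 0.0404) or without replicate 5 of LPS (-0.77, adjusted p = 0.0437). Acadm had 0.04 (-0.117 to 0.193) in UVABs against LPS and -0.02 (-0.18 to 0.13) in STSABs against LPS. Hadha had -0.04 (-0.14 to 0.061) in UVABs against LPS and -0.04 (-0.144 to 0.056) in STSABs against LPS. For Pparg, Ppargc1b and Acadm, the LPS level was far from Con. Their intervals leave out the Con level, which lies 2.06, 4.06 and 1.28 above LPS on the log2 scale.

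**Figure D4:**
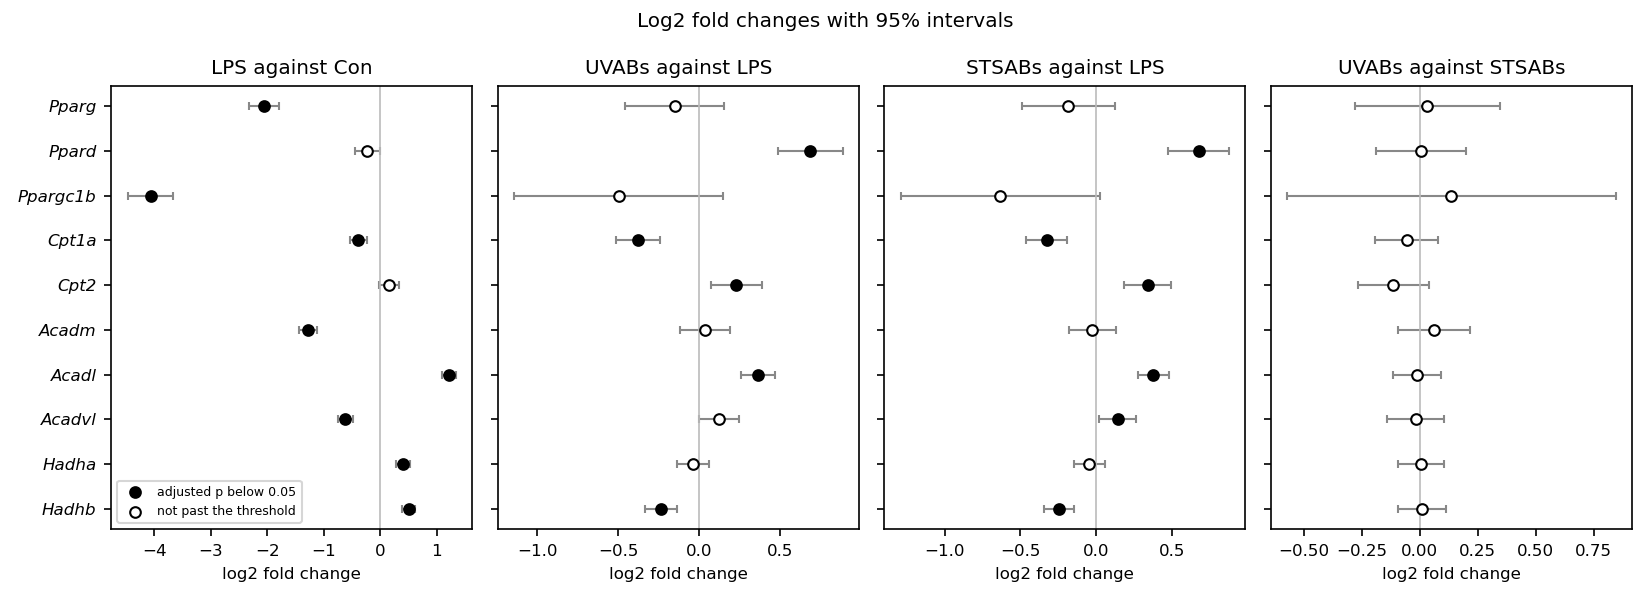
Log2 fold change of the 10 genes with 95% intervals in LPS against Con, UVABs against LPS, STSABs against LPS and UVABs against STSABs (TMM scaling, axes differ between panels), with filled points for an adjusted p below 0.05. Both comparisons of apoptotic bodies with LPS have Ppard, Cpt2 and Acadl to the right and Cpt1a and Hadhb to the left, and no point is filled in UVABs against STSABs.

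Markers of neutrophils moved with these comparisons. All 8 of 8 neutrophil markers, none at 0 in any group, were higher in both AB groups than in LPS, with a median log2 fold change of 0.75 in UVABs and 0.88 in STSABs. Their summed level was 3181 to 4204 CPM in UVABs, 3251 to 4711 in STSABs, 1812 to 2524 in LPS and 1185 to 1481 in Con. In bulk RNA fewer cells of a type and less RNA per cell cannot be told apart, and the part of these cells in the results on the 10 genes was not tested. Of 8 adipocyte markers, which bear on Pparg, 7 were in the table, and their sum of 157 to 170 CPM in UVABs, 153 to 182 in STSABs, 152 to 158 in LPS and 110 to 120 in Con came mostly from the widely expressed lipases Pnpla2 and Lipe. Adipoq was at 0 in UVABs and LPS, and Cfd at 0 in UVABs, STSABs and LPS. Of the inflammatory genes measured as a check, Tnf averaged 388 CPM in UVABs, 386 in STSABs, 613 in LPS and 10.1 in Con, and Il6 averaged 909 CPM in UVABs, 868 in STSABs, 1339 in LPS and 3.8 in Con. Il1b averaged 3886 CPM in UVABs, 3780 in STSABs, 4444 in LPS and 27.3 in Con, and Nos2 averaged 3056 CPM in UVABs, 2962 in STSABs, 2677 in LPS and 0.843 in Con. Tnf, Il6 and Il1b were called lower in both AB groups than in LPS, and Nos2 did not pass in either comparison.

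Against Con, all 10 genes were called in both AB groups with TMM scaling, Ppard, Cpt2, Acadl, Hadha and Hadhb higher and Pparg, Ppargc1b, Cpt1a, Acadm and Acadvl lower. The test called 82.6% of all tested genes in UVABs against Con, 40.2% higher and 42.4% lower, and 82.6% in STSABs against Con, 40% higher and 42.6% lower. Acadl was 2.98-fold higher in UVABs and 3.01-fold higher in STSABs than in Con. Ppargc1b was 23.6-fold lower in UVABs and 25.9-fold lower in STSABs, and Pparg 4.64-fold and 4.75-fold lower. The call of Ppard as higher than Con, with a log2 fold change of 0.46 in UVABs and 0.45 in STSABs, did not hold with upper-quartile scaling (0.19 and 0.18) and turned to -0.25 in both with library totals. Cpt2, Hadha and Hadhb also turned negative with library totals in both AB groups, and with upper-quartile scaling 6 of the 10 genes were called in UVABs against Con.

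UVABs and STSABs differed in none of the 10 genes by the test, and in none of 12465 genes (0% called, 0% higher and 0% lower, edgeR's quasi-likelihood test, with 198 genes and 0 of the 10 at an unadjusted p below 0.05). DESeq2 and limma-voom also called 0 genes. The 95% interval of the log2 difference, UVABs minus STSABs, was -0.187 to 0.199 for Ppard, -0.192 to 0.08 for Cpt1a, -0.267 to 0.039 for Cpt2 and -0.092 to 0.217 for Acadm. It was -0.116 to 0.09 for Acadl, -0.142 to 0.105 for Acadvl, -0.096 to 0.105 for Hadha and -0.092 to 0.111 for Hadhb. Among these 8 genes no interval reached farther from 0 than the -0.267 of Cpt2. The intervals were wider for Pparg (-0.279 to 0.345) and Ppargc1b (-0.572 to 0.844), which had the lowest counts.

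In the wider pathway, most genes of the oxidation steps were lower in LPS against Con. Levels of the genes named from the lists are group means (n = 5, in Con n = 3), and each gene called higher or lower passed edgeR's test. Of 15 other enzymes of mitochondrial beta-oxidation 12 were lower and 3 higher, beside 43% lower and 40% higher among all tested genes, and their median log2 fold change was -0.70 beside -0.03. With TMM the same 2 shares are the background in this comparison of the lists that follow, of which no list was tested as a whole. Echs1, the short-chain enoyl-CoA hydratase, had 13.9 CPM in LPS and 46.2 in Con, and Hadh, the short-chain hydroxyacyl-CoA dehydrogenase, had 8.99 CPM in LPS and 29.9 in Con. Acad9, a dehydrogenase also needed to assemble complex I, was higher, at 51.7 CPM in LPS and 20.6 in Con.

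Of 13 tested genes of peroxisomal beta-oxidation 11 were lower and 1 higher in LPS against Con (median -1.18). Acox3, an acyl-CoA oxidase, had 87.7 CPM in LPS and 280 in Con. The gene that rose was Acaa1a, the peroxisomal thiolase, at 215 CPM in LPS and 92.9 in Con, which has a close paralog and may share reads with it. The paralog, Acaa1b, was assigned 0 to 2.02 counts per LPS library and 1.09 to 3.62 per Con library, and sharing of reads was not tested. Of 8 other carnitine shuttle genes 6 were lower and 1 higher (median -0.67), among them Crat, the carnitine acetyltransferase, at 22.3 CPM in LPS and 115 in Con.

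Genes upstream of oxidation went both ways. Of 10 tested genes of fatty acid uptake and activation 6 were higher and 2 lower in LPS against Con with TMM, but 1 was higher and 7 lower with library totals. With library totals 2365 of all 12465 tested genes were higher and 8802 lower, which is the background of the library-totals counts in this paragraph. Acsl1, which activates long-chain fatty acids, was 464 CPM in LPS and 43.2 in Con, while its relative Acsl3 was 1.92 CPM in LPS and 18.6 in Con and the transporter gene Slc27a1 was 4.89 CPM in LPS and 38.7 in Con. Of 15 tested PPAR partners and cofactors 8 were higher and 6 lower with TMM and 2 higher and 9 lower with library totals. Rxra, the RXR partner with which PPARs bind DNA, was 13 CPM in LPS and 68.1 in Con (log2 fold change -2.39 ± 0.08 SE, adjusted p = 2.06e-17, edgeR). Of 6 tested PPAR target genes 3 were higher and 3 lower with TMM, 2 higher and 4 lower with library totals. Fabp4, a fatty acid binding protein of adipocytes and macrophages, was 69.9 CPM in LPS and 5.77 in Con, Plin2, the lipid droplet coat protein, 382 CPM in LPS and 182 in Con, and Angptl4, a secreted inhibitor of lipoprotein lipase, 0.305 CPM in LPS and 4.93 in Con. Of 7 acyl-CoA thioesterases 2 were higher and 3 lower, with Acot9 at 96.9 CPM in LPS and 37.5 in Con, and the close paralogs Acot1 and Acot2 lower.

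**Figure D5:**
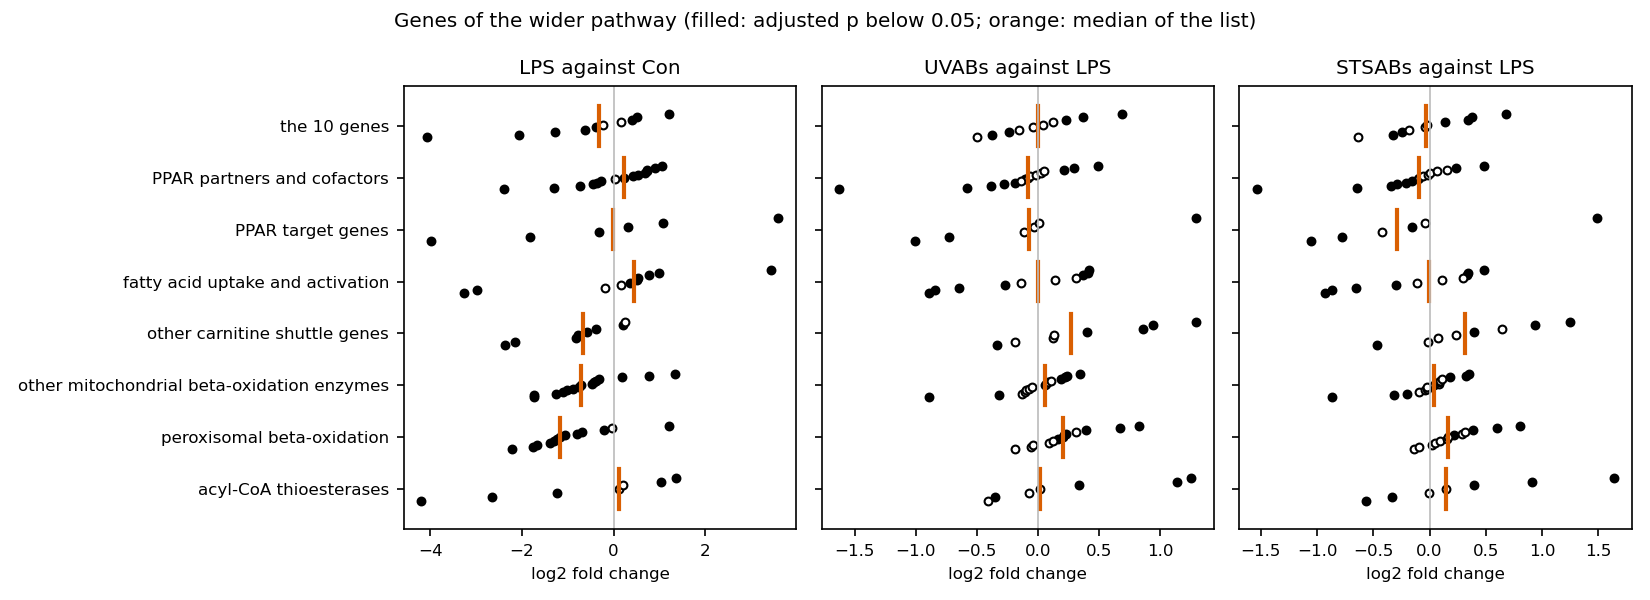
Log2 fold change of each tested gene of the 10 genes and of 7 lists of the wider pathway (one point per gene, TMM scaling, axes differ between panels) in LPS against Con, UVABs against LPS and STSABs against LPS, filled where the adjusted p is below 0.05, with an orange line at the list median. In LPS against Con the medians of the mitochondrial, peroxisomal and other carnitine shuttle lists are -0.70, -1.18 and -0.67, and against LPS the same lists have medians of 0.05, 0.20 and 0.27 in UVABs and 0.04, 0.16 and 0.32 in STSABs.

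Against LPS, transport and peroxisomal genes were among those that were higher in the AB groups. In the carnitine shuttle, Slc25a20, which carries acylcarnitines across the inner membrane between the 2 palmitoyltransferases, was 31.3 CPM in UVABs and 31.4 in STSABs, against 16.3 in LPS, a log2 fold change of 0.94 in either comparison. Crat was higher too, at 29.5 CPM in UVABs and 29.4 in STSABs, against 22.3 in LPS. Of the 8 genes 4 were higher and 1 lower in UVABs against LPS, and 3 higher and 1 lower in STSABs against LPS. Among all tested genes 28.6% were higher and 28.8% lower in UVABs against LPS, and 28.4% higher and 29% lower in STSABs against LPS. In the peroxisomal list 7 of 13 genes were higher and 0 lower in UVABs against LPS, and 4 higher and 0 lower in STSABs against LPS, the second a share near that of all tested genes. Acaa1a reached 342 CPM in UVABs and 326 in STSABs, against 215 in LPS, and Abcd2, a peroxisomal fatty acid transporter, 10.1 CPM in UVABs and 9.93 in STSABs, against 5.7 in LPS.

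The uptake genes with the smallest adjusted p were lower in the AB groups. Lpl, the lipoprotein lipase, was 703 CPM in UVABs and 688 in STSABs, against 1259 in LPS, and Acsl1 was 251 CPM in UVABs and 243 in STSABs, against 464 in LPS. Cd36, a fatty acid translocase and PPARγ target, was 353 CPM in UVABs and 341 in STSABs, against 586 in LPS, and Fabp4 was 34.8 CPM in UVABs and 33.6 in STSABs, against 69.9 in LPS. The uptake and activation list as a whole had 3 genes higher and 4 lower in either comparison, among the higher ones Slc27a4 at 50.4 CPM in UVABs and 48.3 in STSABs, against 38 in LPS. Among cofactors, Pprc1, a further coactivator of the PGC-1 family, was 6.81 CPM in UVABs and 7.26 in STSABs, against 21 in LPS, and the corepressor Nrip1 was 28.1 CPM in UVABs and 26.8 in STSABs, against 42 in LPS. Rxrb, another RXR partner, was higher, at 31.6 CPM in UVABs and 31.4 in STSABs, against 22.5 in LPS. Of the 15 cofactors 3 were higher and 6 lower in UVABs against LPS, and 2 higher and 6 lower in STSABs against LPS. Of the 6 PPAR targets 1 was higher and 2 lower in UVABs against LPS, and 1 higher and 3 lower in STSABs against LPS. The higher one was G0s2, an inhibitor of the lipase ATGL, at 1.26 CPM in UVABs and 1.45 in STSABs, against 0.509 in LPS. Its levels rest on 10 to 41 counts per library in UVABs, 12 to 47 in STSABs and 6 to 11 in LPS, and UVABs overlapped LPS. Of the 15 mitochondrial enzymes 4 were higher and 2 lower in UVABs against LPS and 3 higher and 3 lower in STSABs against LPS, with Acad9 at 27.9 CPM in UVABs and 28.3 in STSABs, against 51.7 in LPS. No gene of these lists passed in UVABs against STSABs.

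By the Pearson correlation of log2 CPM over the 18 libraries, the genes most like them in pattern were Coch (0.995) and Atmin (0.995) for Acadl, Pald1 (0.987) and Fh1 (0.985) for Acadm, and Socs5 (0.985) and Ivns1abp (0.982) for Pparg. For Ppard they were Plekhg2 (0.981) and Ppp1r3b (0.975), for Ppargc1b Hrh1 (0.979) and Fcgrt (0.978), and for Cpt2 Arhgap26 (0.888) and Zmym3 (0.882). For Cpt1a they were Pdcd2 (0.977) and Plxna1 (0.968), for Acadvl Nt5c3b (0.958) and Txndc15 (0.958), for Hadha Becn1 (0.964) and Arpc2 (0.957), and for Hadhb Eif2s1 (0.986) and Ube2n (0.97). The libraries share their groups and depth, so these values describe mainly the order of group levels and have no p.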

How the data were processed

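Per the labels' protocols, poly(A) RNA was purified with oligo(dT) beads, and dUTP in the second strand made the libraries strand-specific. The submitters' processing notes name HISAT2 and the build mm39. How reads were counted (tool, strand setting, annotation) is not given in the sources. The authors deposited estimated counts, not normalized, for 16909 gene symbols. Of the values 6.35% were not whole, none of them in the 10 genes, and all were rounded before testing. The spellings UVAB and UVABs were joined as the design text gives them.

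Genes passing filterByExpr by group (12465, with 99.97% of counts) were scaled by TMM and tested with edgeR 4.0.16 (R 4.3.3), a quasi-likelihood F-test over all 18 libraries with group means and Benjamini-Hochberg adjustment at 0.05. Errors of log2 fold changes are the change divided by the root of F. The test was run on simulated counts in which a small share of the better expressed genes changed. That check does not cover the low-count Pparg and Ppargc1b, or comparisons in which most genes are called. Alternatives were other scalings, DESeq2 1.42.0, limma-voom (limma 3.58.1), other filters, fits of only the groups compared, a replicate block, subsets by replicate number, and each library left out. No libraries of a group agreed within sampling noise. Same-numbered UVABs and STSABs libraries deviated together (correlations 0.116, 0.54, 0.129, 0.288 and 0.137), though UVABs replicate 5 matched STSABs replicate 4 best. The numbers were taken to pair these 2 groups, and with the replicate block the count of called genes remained 0. LPS replicates 1 to 3 also each matched the same-numbered Con library best (0.062, 0.019 and 0.113). The intervals given for UVABs against STSABs come from the fit without the block. The members and lists were chosen with earlier results of these data known. The rule for names took the 10 genes and, per pathway list and comparison, the 4 genes with the smallest adjusted p. Ppara, Ppargc1a, Dvl2 and Acaa1b were named outside it, and not every gene it picks is reported here. Transcript lengths and exon overlaps come from GENCODE vM21, promoter windows from RefSeq GRCm38.p6.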

Additional observations from a re-analysis of the deposited data

Results flagged for a closer look

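Of 30 pairs of a gene and a group of 5 libraries, 2 held a library far from the others of its group by Dixon's criterion, which chance meets in about 1 of 20 groups. Cpt2 was lowest in UVABs replicate 5, at 16.1 CPM, where the other UVABs libraries had 18.2 to 18.9 CPM. Acadl was highest in UVABs replicate 2, at 192 CPM, where the other UVABs libraries had 172 to 177 CPM, and that library also stood apart over all genes. Without replicate 2 of both AB groups the log2 fold change of Acadl in UVABs against LPS was 0.33, still past the threshold.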

How the results depend on the processing

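The number of the 10 genes called stayed within 1.5 times its value in each comparison under every alternative run, except UVABs against Con with upper-quartile scaling, where it was 6 and not 10. With library totals alone, signs turned in LPS against Con for Cpt2 (-0.59), Hadha (-0.35) and Hadhb (-0.24), in STSABs against Con for Ppard (-0.25), Cpt2 (-0.20), Hadha (-0.34) and Hadhb (-0.44), in UVABs against Con for Ppard (-0.25), Cpt2 (-0.32), Hadha (-0.35) and Hadhb (-0.44), and, none of them called, for Acadm (0.02) and Hadha (0) in STSABs against LPS, Hadha (0) in UVABs against LPS, and Ppard (0) and Hadha (0) in UVABs against STSABs. Upper-quartile scaling turned Cpt2 in LPS against Con (-0.12) and Hadhb in STSABs against Con (-0.01) and UVABs against Con (0). With replicates 1 to 3 only, uncalled values in UVABs against STSABs turned for Pparg (-0.19), Ppargc1b (-0.03) and Hadha (-0.01). Without replicate 2 of both AB groups, chosen after seeing the data, they turned for Ppard (-0.01) and Hadha (-0.01), and for Acadm in UVABs against LPS (0). The cause was not tested.

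Leaving out single libraries turned no called value. The uncalled ones that turned ranged over -0.06 to 0.03 for Acadm in STSABs against LPS and 0 to 0.07 in UVABs against LPS. In UVABs against STSABs they ranged over -0.06 to 0.11 for Pparg, -0.07 to 0.07 for Ppard, -0.07 to 0.35 for Ppargc1b, -0.04 to 0 for Acadl, -0.05 to 0.01 for Acadvl, -0.01 to 0.02 for Hadha and -0.02 to 0.03 for Hadhb. For Ppard in LPS against Con the value passed without replicate 2 of UVABs, 2 of STSABs, 3 or 5 of LPS or 1 of Con (-0.30 to -0.23), and also with no filter (-0.25), a stricter filter (-0.27), only the groups compared (-0.22) and without replicate 2 of both AB groups (-0.23). Cpt2 in LPS against Con passed without replicate 4 of LPS (0.19) and with replicates 1 to 3 only (0.23), and Acadvl in UVABs against LPS without replicate 3 of LPS and with library totals (0.16 each).

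The replicate block was taken to count only for the AB groups, whose numbers were taken to pair. In STSABs against LPS, where the numbers do not pair, the replicate block moved Ppargc1b past the threshold (-0.63, adjusted p = 0.0411, edgeR) and Acadvl out of it (0.14, adjusted p = 0.0529, edgeR), at 6 called genes in either fit, and it changed no other call among the 10 genes. Depth limits Ppargc1b most, at 4 to 21 counts in the treated libraries.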
